A study of Homo sapiens with 2 samples.

Results

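Of the 14914 features in the table, 39 carried the symbol of a ribosomal protein pseudogene, meaning RPL or RPS, a number, an optional letter A, X or L, then P and a number. Each was set against the gene it is named after, here called its parent. The 39 copies have 27 parents, all of them listed, and 28 copies belong to proteins of the large ribosomal subunit and 11 to proteins of the small subunit. RNA was sequenced in HUH7 cells, a line from human hepatocellular carcinoma, after immunoprecipitation of CSTF2 (IP, 1 library) and before it (Input, 1 library). The labels name no genotype, treatment or time for either library, and an immunoprecipitation without the CSTF2 antibody was not analysed here. All 9 liver markers looked up were listed, from TTR at 1.43 RPKM in IP RNA and 4.25 RPKM in Input RNA to FGB at 353 RPKM in IP RNA and 311 RPKM in Input RNA. Of 7 markers of blood, stromal and endothelial cells, 3 were listed, between 0.576 and 3.12 RPKM.

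A ribosomal protein gene is among the most strongly transcribed genes of a cell, and its spliced mRNA has often been copied back into DNA and inserted elsewhere in the genome. Such processed pseudogenes lack introns and usually lack a promoter of their own, so they are seldom transcribed, although a copy that lands inside another gene can be read through as part of that gene's precursor RNA. Because recent copies differ from the parent mRNA at few bases, a short sequencing read may match the copy and the parent equally well. CSTF2 (CstF-64) is the subunit of the cleavage stimulation factor that binds RNA downstream of the cleavage site when the 3′ end of an mRNA is formed.

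The stretch that follows, bases 121 to 210 of the coding sequence of RPL23A, is shown because 9 listed copies share this parent and those printed range from no difference to 11 mismatches. RPL23A is a protein of the large subunit beside the exit of the peptide tunnel. Capitals mark bases of a copy that differ from the parent or are inserted. Sequences are GENCODE v29 transcripts on GRCh38, 5′ to 3′.
RPL23A: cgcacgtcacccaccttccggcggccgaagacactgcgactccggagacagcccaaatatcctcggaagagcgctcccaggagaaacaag
RPL23AP42: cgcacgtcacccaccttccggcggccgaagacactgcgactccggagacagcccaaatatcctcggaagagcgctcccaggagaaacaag
RPL23AP65: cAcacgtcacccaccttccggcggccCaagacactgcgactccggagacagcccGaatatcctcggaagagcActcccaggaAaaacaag
RPL23AP57: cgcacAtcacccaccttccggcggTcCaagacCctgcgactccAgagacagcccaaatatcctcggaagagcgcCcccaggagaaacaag
RPL23AP32: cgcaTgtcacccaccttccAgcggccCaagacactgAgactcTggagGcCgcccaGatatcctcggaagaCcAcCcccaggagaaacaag
RPL23AP82: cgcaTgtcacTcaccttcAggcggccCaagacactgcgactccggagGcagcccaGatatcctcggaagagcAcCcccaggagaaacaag
RPL23AP42 (chr3:161429388-161429477 on the minus strand) has no difference from RPL23A here, RPL23AP65 (chr11:9606259-9606348 on the plus strand) has 5 mismatches and RPL23AP57 (chr9:6639262-6639351 on the plus strand) has 6. RPL23AP82 (chr22:50798774-50798863 on the plus strand) has 8 mismatches, and RPL23AP32 (chr2:54529466-54529555 on the plus strand) has 11. In the parent the stretch spans a splice junction on chromosome 17, whereas in each of these copies it is continuous in the genome.

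The same stretch of the coding sequence is shown for 3 more parents, all of the small subunit, to set the best covered copy of the table beside 2 copies that were higher in IP RNA.
RPS2: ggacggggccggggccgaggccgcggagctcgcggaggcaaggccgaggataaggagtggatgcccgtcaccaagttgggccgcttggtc
RPS2P5: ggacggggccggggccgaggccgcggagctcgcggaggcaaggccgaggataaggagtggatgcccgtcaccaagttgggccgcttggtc
RPS2P46: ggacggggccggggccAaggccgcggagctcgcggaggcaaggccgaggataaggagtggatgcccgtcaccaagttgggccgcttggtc
RPS18: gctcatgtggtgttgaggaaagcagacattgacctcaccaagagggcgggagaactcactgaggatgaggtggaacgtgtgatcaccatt
RPS18P9: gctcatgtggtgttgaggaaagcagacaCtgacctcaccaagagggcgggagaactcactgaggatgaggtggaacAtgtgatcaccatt
RPS14: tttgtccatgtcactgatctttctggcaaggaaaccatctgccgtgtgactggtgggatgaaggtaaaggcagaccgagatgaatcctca
RPS14P4: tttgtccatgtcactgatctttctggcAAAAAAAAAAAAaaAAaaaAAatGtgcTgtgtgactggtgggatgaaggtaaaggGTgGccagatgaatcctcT
RPS2P5 (chr12:118246204-118246293 on the plus strand) equals RPS2 over these 90 bases, and RPS2P46 (chr17:19446643-19446732 on the minus strand) has 1 mismatch. RPS18P9 (chr6:149594205-149594294 on the plus strand) has 2. RPS14P4 (chr2:111295826-111295926 on the minus strand) has 10 mismatches and 13 gap bases, most of them in an inserted run of A.

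The Input was the deeper library, with 9517885 assigned reads, against 3220045 in IP RNA. A copy had a median of 4 reads in IP RNA and 14 in Input RNA, a parent 465 in IP RNA and 3100 in Input RNA. The 39 copies together held 274 reads in IP RNA and 1115 in Input RNA. A feature was listed only when it reached about 1 CPM (reads scaled to library depth), which takes 4 reads in IP RNA or 10 in Input RNA. Of the 39 copies, 9 reached that level in IP RNA alone, 13 in both libraries and 17 in Input RNA alone. A copy that reached it in IP RNA alone had to be higher in IP RNA, and a copy that reached it in Input RNA alone had to be lower. Those directions come with the listing and are given as values. With 1 library per group there is no test and no replicate check. A ratio of shares also does not tell apart less of one RNA and more of the others.

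**Figure D1:**
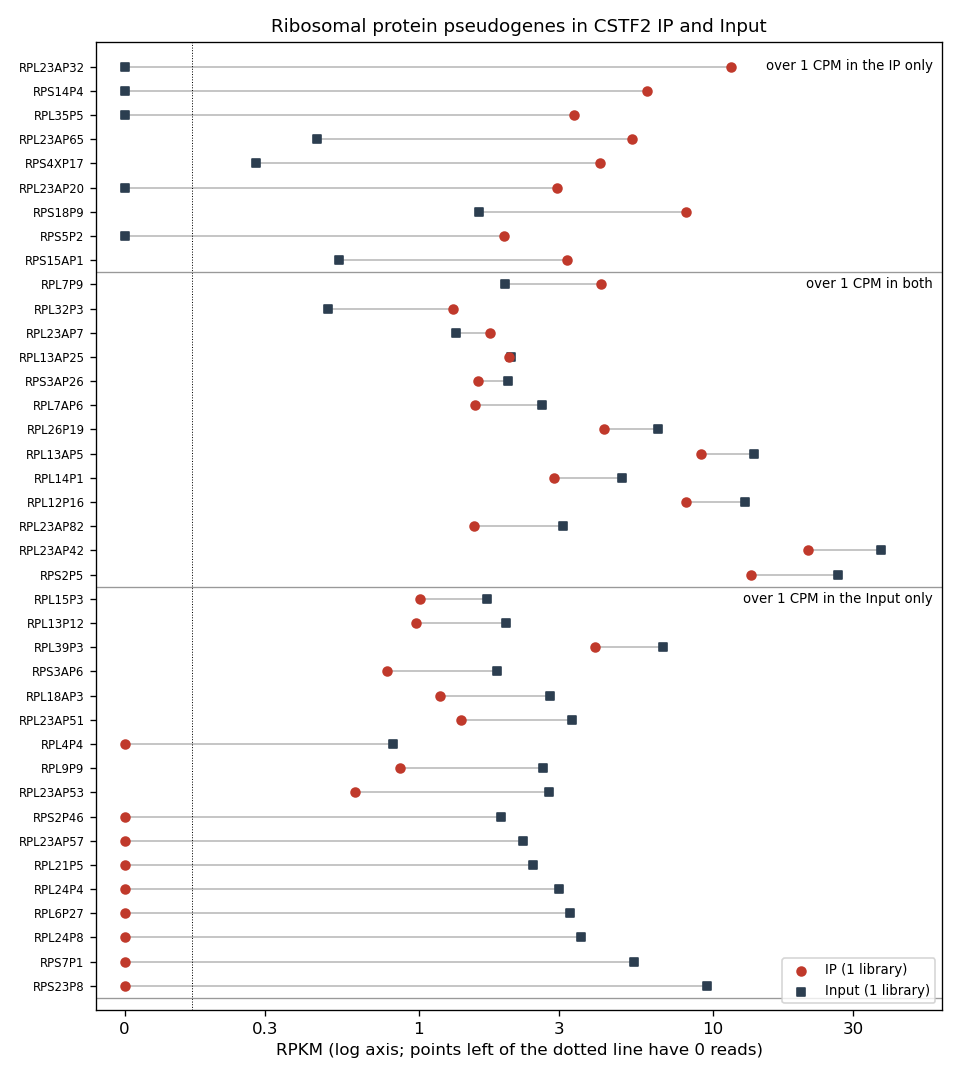
RPKM (log axis) of the 39 copies in IP RNA (red circles) and the Input (dark squares), 1 library each, grouped by the library in which the copy passed 1 CPM, with copies at 0 reads drawn at the left edge. The 13 copies over 1 CPM in both libraries differ by at most 2.67-fold between the libraries, and RPL23AP42 and RPS2P5 are the highest copies in both.

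The parents were lower in IP RNA. On the scale log2((IP + 1)/(Input + 1)) of RPKM, all 27 parents were below 0, and for 26 the 95% exact conditional interval of the IP/Input ratio, which covers counting error only, lay below 1. At least 2-fold lower were 14 of the 27, and none was 2-fold higher, with a median of -1.12. The filter of a mean of 1 RPKM or more kept 9880 features of any kind, of which 9.88% lay 2-fold or further above and 6.83% 2-fold or further below, with a median of 0.17. The lowest parent was RPS3A, a small subunit protein gene, at 22.0 RPKM in IP RNA and 103 RPKM in Input RNA, 4.70-fold lower (4.01 to 5.53). RPL21 followed with 17.4 RPKM in IP RNA and 69.8 RPKM in Input RNA, then RPL32 with 25.9 and RPS18 with 34.2 RPKM in IP RNA, against 87.6 RPKM for RPL32 and 111 RPKM for RPS18 in Input RNA. The highest parent was RPL13A, for a large subunit protein also known from a complex that silences inflammatory mRNAs. It had 242 RPKM in IP RNA and 245 RPKM in Input RNA, with a ratio of 0.987 (0.936 to 1.04). RPL7A (0.857), RPL13 (0.812) and RPL15 (0.708) came next by ratio, with intervals below 1.

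The sum over the copies depends on which library listed them. Summed over the 39 copies, the level was 130.0 RPKM in IP RNA and 174 RPKM in Input RNA, a ratio of 0.747. The 27 parents summed to 1971 RPKM in IP RNA and 3872 RPKM in Input RNA, a ratio of 0.509. By share of reads the copies took 0.00851% of the IP (95% Wilson interval 0.00756 to 0.00958) and 0.0117% of the Input (0.0110 to 0.0124), which is 1.38-fold lower in IP RNA (1.21 to 1.58). The parents were 1.95-fold lower by share (1.92 to 1.98). The highest copy by RPKM, RPL23AP42, weighs on the sum of RPKM, and without it the ratio was 0.796. Without the 9 copies over 1 CPM in IP RNA alone the ratio was 0.488, and without the 17 over 1 CPM in Input RNA alone it was 1.01. For the 13 copies over 1 CPM in both libraries it was 0.631.

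Of the 39 copies, 35 had a mean of at least 1 RPKM. RPS5P2, RPL32P3, RPL4P4 and RPS2P46 did not. Among the 35, 8 were 2-fold or further above and 8 2-fold or further below in IP RNA, which is 22.9% each, against 9.88% and 6.83% of all features. The median log2 ratio was -0.60. These counts follow the listing: all 8 higher copies passed 1 CPM in IP RNA alone and all 8 lower copies in Input RNA alone, while none of the 13 copies over 1 CPM in both libraries was 2-fold away in either direction on this scale. Of all features past the filter, 510 passed 1 CPM in IP RNA alone, and 381 of these were at least 2-fold higher. Another 278 passed it in Input RNA alone, and 192 of these were at least 2-fold lower. Centred on the median of all features, 8 copies were higher and 11 lower, but no share over all features is given on that scale.

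The 2 copies with the most reads were lower in IP RNA. RPS2P5, a copy of the gene for a small subunit protein at the mRNA entry channel, had 38 reads and 13.4 RPKM in IP RNA and 222 reads and 26.5 RPKM in Input RNA, 1.98-fold lower (1.40 to 2.87). Its parent RPS2 had 96.4 RPKM in IP RNA and 154 RPKM in Input RNA, 1.60-fold lower (1.48 to 1.73). RPL23AP42 had 32 reads and 21.1 RPKM in IP RNA and 167 reads and 37.3 RPKM in Input RNA, 1.77-fold lower (1.20 to 2.66). RPL23A had 204 RPKM in IP RNA and 474 RPKM in Input RNA, 2.32-fold lower (2.21 to 2.44). Both copies thus went in the direction of the parent. RPS2P5 is 98.7% and RPL23AP42 99.6% identical to the coding sequence of its parent, so reads of copy and parent cannot be fully told apart. The copy's ratio over the parent's ratio was 0.810 for RPS2P5 (exact conditional interval 0.553 to 1.16) and 1.31 for RPL23AP42 (0.868 to 1.93), and both intervals include 1. With reads halved, for a reason given further on, the intervals of the IP/Input ratio still lay below 1 for both, at 0.294 to 0.828 for RPS2P5 and 0.310 to 0.975 for RPL23AP42.

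Other copies over 1 CPM in both libraries had fewer reads. RPL13AP5 had 9.13 RPKM in IP RNA and 13.7 RPKM in Input RNA (18 and 80 reads), a ratio of 0.665 (0.375 to 1.12). RPL12P16, a copy of the gene for a protein of the ribosomal stalk base, had 8.11 RPKM in IP RNA and 12.9 RPKM in Input RNA (13 and 61 reads), a ratio of 0.630 (0.317 to 1.16). Neither interval excludes 1. RPL26P19 had 4.25 RPKM in IP RNA and 6.48 RPKM in Input RNA, and RPL14P1 2.89 RPKM in IP RNA and 4.89 RPKM in Input RNA. RPL7AP6 had 1.55 RPKM in IP RNA and 2.62 RPKM in Input RNA, RPS3AP26 1.58 RPKM in IP RNA and 2.01 RPKM in Input RNA, and RPL13AP25 2.03 RPKM in IP RNA and 2.06 RPKM in Input RNA. Each of these 5 rested on 4 or 6 reads in IP RNA, and its interval includes 1.

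RPL7P9 was the 1 copy of at least 98% identity that lay above its input level. It had 10 reads and 4.16 RPKM in IP RNA and 14 reads and 1.97 RPKM in Input RNA, a ratio of 2.11 whose interval includes 1 (0.839 to 5.11). Its parent RPL7, for a large subunit protein, had 25.9 RPKM in IP RNA and 57.3 RPKM in Input RNA, so the ratio of the copy was 4.68 times that of the parent (1.84 to 11.5). RPL7P9 lies on chromosome 1 from 96678874 to 96679620, outside other annotated genes, and its open reading frame of 248 codons is as long as the parent protein.

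Of the 6 copies with several annotated exon blocks, 3 had more than 30 reads, and their values differed. GENCODE v29 annotates RPL32P3 and RPL23AP82 as transcribed unprocessed pseudogenes, and RPL23AP7 as transcribed and processed. RPL32P3 (chromosome 3, 129382922 to 129399655, 7 exon blocks) had 19 reads and 1.31 RPKM in IP RNA and 21 reads and 0.490 RPKM in Input RNA, 2.67-fold higher (1.36 to 5.23, or 0.991 to 7.12 with reads halved). Its parent RPL32 was 3.38-fold lower (3.01 to 3.81), and the ratio of the copy was 9.05 times that of the parent (4.54 to 17.9). RPL23AP7 had 1.75 RPKM in IP RNA and 1.33 RPKM in Input RNA, a ratio of 1.31 (0.606 to 2.68), which was 3.05 times that of RPL23A (1.40 to 6.23). RPL23AP82 went the other way, with 1.53 RPKM in IP RNA and 3.09 RPKM in Input RNA (21 and 125 reads), 2.01-fold lower (1.26 to 3.37), and 1.15 times the ratio of RPL23A (0.687 to 1.84). For these 3 loci most of the counted length is not ribosomal protein sequence: the table gives lengths of 4504, 2128 and 4250 bases for RPL32P3, RPL23AP7 and RPL23AP82, and the coding sequences of RPL32 and RPL23A are 408 and 471 bases long.

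Of the 9 copies that passed 1 CPM in IP RNA alone, RPL23AP32 was the highest, with 17 reads and 11.5 RPKM in IP RNA and 0 reads in Input RNA. The exact interval of its IP/Input ratio lay above 12.2 (above 5.44 with reads halved). It lies in an intron of SPTBN1, the gene for a nonerythroid beta spectrin, on the same strand (chromosome 2, 54529343 to 54529801). SPTBN1 had 166 RPKM in IP RNA and 27.4 RPKM in Input RNA, a log2 ratio of 2.56. The part of that gene's RNA in the reads of the copy was not tested. RPS14P4 had 8 reads in IP RNA and 0 in Input RNA, an interval above 5.05 (1.95 with reads halved), in an intron of MIR4435-2HG on the same strand. That long noncoding RNA gene had 3.47 RPKM in IP RNA and 2.47 RPKM in Input RNA. RPL35P5, RPL23AP20 and RPS5P2 each had 4 reads in IP RNA and 0 in Input RNA, an interval above 1.95 that includes 1 with reads halved (above 0.555). For all of these copies with 0 reads in Input RNA the direction came with the listing, of which the limits take no account.

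The remaining 4 of these 9 had reads in both libraries. RPS4XP17 had 4.12 RPKM in IP RNA and 0.279 RPKM in Input RNA (10 and 2 reads), a ratio of 14.8 (3.15 to 139). It lies inside VPS53, the gene for a vesicle tethering subunit, where 119 of its bases overlap an exon on the same strand, and VPS53 had 0.832 RPKM in IP RNA and 0.422 RPKM in Input RNA. RPL23AP65 had 5.31 RPKM in IP RNA and 0.449 RPKM in Input RNA (8 and 2 reads), a ratio of 11.8 (2.36 to 114). RPS18P9 had 8.10 RPKM in IP RNA and 1.60 RPKM in Input RNA (12 and 7 reads), a ratio of 5.07 (1.84 to 15.2). The table gives RPS18P9 a length of 460 bases, shorter than the 1725 bases of its 3 exon blocks in GENCODE v29. RPS15AP1 rested on 4 reads in IP RNA and 2 in Input RNA, and its interval includes 1 (0.847 to 65.4). With 2 reads in Input RNA, the upper limits for RPS4XP17, RPL23AP65 and RPS15AP1 are nearly open. The lower limits take no account of the listing, which kept all 9 copies, those with 0 reads in Input RNA included, because they were high in IP RNA.

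Among the 17 copies over 1 CPM in Input RNA alone, 9 had 0 reads in IP RNA. RPS23P8, a copy of the gene for a small subunit protein of the decoding centre, had 9.55 RPKM in Input RNA on 30 reads. RPS7P1 had 5.39 RPKM in Input RNA, also on 30 reads. By the exact interval both were lower in IP RNA by 2.59-fold or more, a direction that came with their listing, as for all 17. RPL6P27 had 27 reads and 3.25 RPKM in Input RNA and was lower in IP RNA by 2.31-fold or more. RPS2P46 and RPL24P8 had 16 reads in Input RNA each, RPL24P4 12, RPL21P5 11, and RPL23AP57 and RPL4P4 10, and all 6 had 0 in IP RNA. The interval lay below 1 for RPS2P46 and RPL24P8 (upper limit 0.766 each), but included 1 with reads halved (upper limit 1.73 each). It included 1 for the other 4, so a difference from the Input was not detectable for those 4 at this depth.

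The other 8 of the 17 had 2 reads each in IP RNA and between 10 and 27 in Input RNA. RPL23AP53 had 0.607 RPKM in IP RNA and 2.77 RPKM in Input RNA, 4.57-fold lower (1.15 to 39.6). With reads halved its interval includes 1. RPL9P9 had 0.866 RPKM in IP RNA and 2.64 RPKM in Input RNA, with a ratio of 0.328 (0.0370 to 1.37). RPL39P3 had 3.98 RPKM in IP RNA and 6.73 RPKM in Input RNA. It covers the 156 bases of the coding sequence of RPL39, the smallest of these parents, without a mismatch, so no read inside it can be assigned to one of the 2 by sequence. RPL23AP51 (1.40 RPKM in IP RNA and 3.31 RPKM in Input RNA) has no entry in GENCODE v29 and was not compared by sequence. RPL18AP3, RPS3AP6, RPL13P12 and RPL15P3 lay between 0.781 and 1.18 RPKM in IP RNA and between 1.71 and 2.79 RPKM in Input RNA, each with an interval that includes 1.

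Over all 39 copies, the interval of the IP/Input ratio lay above 1 for 9, below 1 for 9 and included 1 for 21. Over all 14913 features with reads, 34.3% had an interval above 1 and 15.3% one below 1. Low read numbers in this table are mostly even: among features with 1 to 19 reads, 74.9% of the IP values and 71.8% of the Input values were even, and so were 26 of the 30 copies with reads in IP RNA. If the 2 reads of a pair were counted one by one, the intervals are too narrow. With all reads halved, 5 copies had an interval above 1 (RPL23AP32, RPS14P4, RPL23AP65, RPS4XP17 and RPS18P9) and 6 below 1 (RPS23P8, RPS7P1, RPL6P27, RPS2P5, RPL23AP42 and RPL23AP82). All 5 above passed 1 CPM in IP RNA alone, and RPS23P8, RPS7P1 and RPL6P27 in Input RNA alone. Their directions came with the listing, whereas RPS2P5, RPL23AP42 and RPL23AP82 were over 1 CPM in both libraries. No share over all features is given with reads halved, so the counts of 5 and 6 are not read against 34.3% and 15.3%.

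The listed copies had a higher median identity to their parents than the other annotated copies. GENCODE v29 holds 1049 pseudogenes with symbols of this form, and 38 of them, 3.62%, were listed. The median identity to the coding sequence of the parent was 98.4% for the 38 listed copies and 88.5% for the other 1011. Of the 51 annotated copies of at least 98% identity, 41.2% were listed, against 1.10% of the 910 under 95%. The longest stretch without a mismatch had a median of 156 bases in the listed copies and 39 bases in the others. An open reading frame as long as the parent protein was present in 12 of the 38 listed copies (31.6%) and 58 of the 1011 others (5.74%). How reads that match several places were assigned is not stated in the labels.

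**Figure D2:**
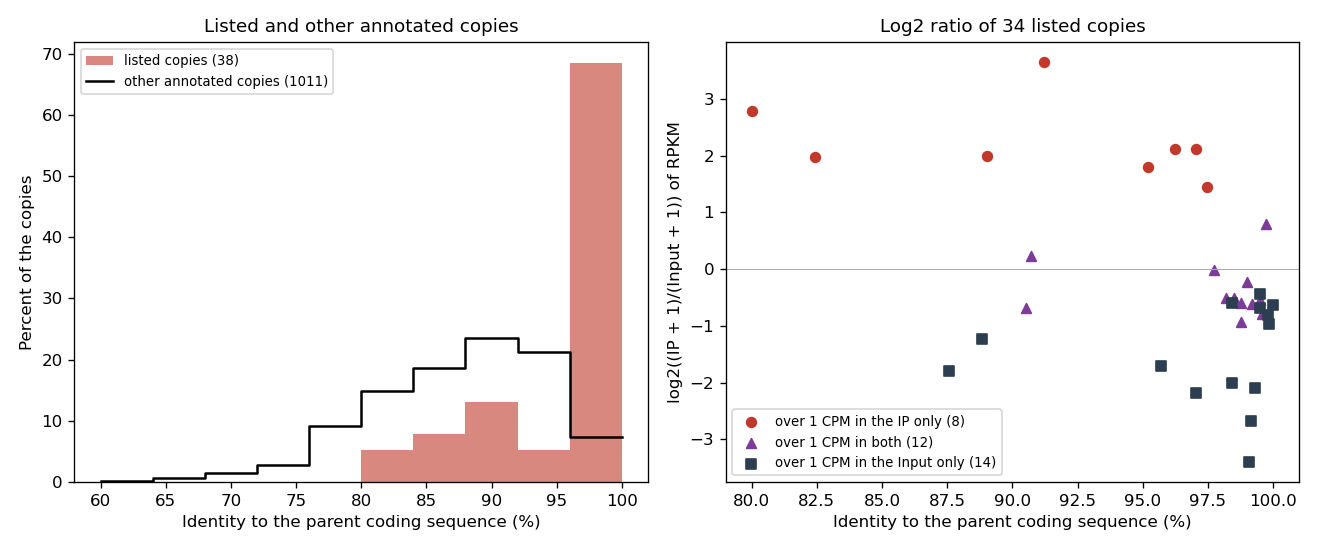
Left, percent of copies by identity to the parent coding sequence, for the 38 listed copies (bars) and the 1011 other annotated copies (line). Right, log2 ratio on the RPKM + 1 scale against identity for the 34 listed copies with a mean of at least 1 RPKM and a known sequence, where every copy over 1 CPM in IP RNA alone lies under 98%.

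Copies were also described by identity to the parent. The classes used here (under 95%, 95 to 98%, and 98% or more) were chosen after the values were seen. All 9 copies over 1 CPM in IP RNA alone were among the 17 under 98% identity, and none was among the 21 of at least 98%. Past the filter, the median log2 ratio was 1.11 for the 8 copies under 95%, 1.44 for the 7 of 95 to 98% and -0.63 for the 19 of at least 98%. Across the 34 copies past the filter with a sequence, identity and log2 ratio had a Spearman rho of -0.35 and a Pearson r of -0.47. These points share 2 libraries and in part their parents, and copies with few reads enter only when they are high in 1 library. Since all 9 copies over 1 CPM in IP RNA alone lie under 98%, the class medians and the correlation carry the direction that came with their listing. RPL23AP57 and RPL24P8, of 95 to 98%, and RPL21P5 and RPL23AP53, under 95%, lay below -1.

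Set against the parents, most copies could not be told from them. The interval of the copy's ratio over the parent's ratio, from which library depth cancels, included 1 for 26 of the 39 copies, lay above 1 for 12 and below 1 for 1. No share of such intervals over all features is given, and the parents were themselves lower in IP RNA. These counts are therefore not read as a trait of the copies. Of the 21 copies of at least 98% identity, 19 had an interval that includes 1, with RPL7P9 above and RPL6P27 below (0 to 0.706). Of the 17 under 98%, 11 had an interval above 1, and 9 of these 11 are the copies over 1 CPM in IP RNA alone, the exceptions being RPL32P3 and RPL23AP7. Those 9 had to be higher in IP RNA and every parent was lower, so their direction against the parent came with the listing. The contrast between identity classes carries that direction. On the log2 scale and past the filter, 12 of 35 copies were at least 2-fold above their parent and 5 at least 2-fold below. Of these, 8 above passed 1 CPM in IP RNA alone and all 5 below in Input RNA alone. The median difference was 0.36. That median depends on the setting: it was 0.027 with a pseudocount of 0.1 RPKM, 0.74 with one of 5 RPKM, 0.65 with a filter of 5 RPKM and -0.021 over copies with at least 20 reads, so no direction is read from it. Among 75 other processed pseudogenes with a listed parent, 50.7% were at least 2-fold above it and 4% at least 2-fold below. Of all 187 other processed pseudogenes, 55.6% passed 1 CPM in IP RNA alone, so these shares carry in part the direction that came with the listing. The intervals of the copy's ratio over the parent's ratio were not recomputed with reads halved and would then be wider. Many are wide already, so one that includes 1 does not show that copy and parent are alike.

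**Figure D3:**
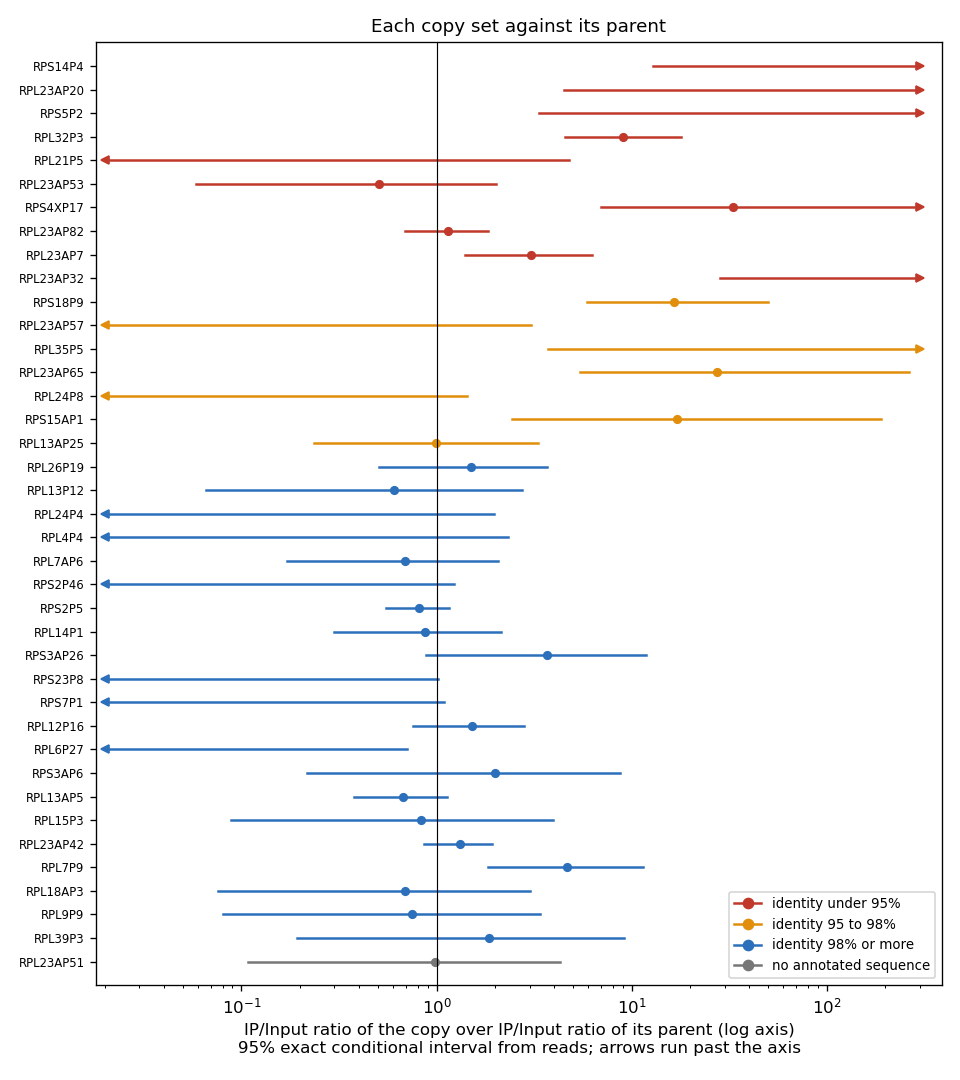
IP/Input ratio of each of the 39 copies divided by that of its parent (log axis), with the 95% exact conditional interval from reads, sorted by identity to the parent coding sequence. Points are absent where the copy has 0 reads in a library, and 19 of the 21 intervals for copies of at least 98% identity cross 1.

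Within a family with several copies the parent is held fixed. The 9 copies of RPL23A held 98 reads in IP RNA and 372 in Input RNA, 5.28% and 2.92% of the reads of RPL23A. RPL23AP32, RPL23AP65 and RPL23AP20 had an IP/Input interval above 1, RPL23AP42, RPL23AP82 and RPL23AP53 one below 1, and RPL23AP7, RPL23AP51 and RPL23AP57 one that includes 1. RPL23AP32, RPL23AP65 and RPL23AP20 passed 1 CPM in IP RNA alone and RPL23AP53 in Input RNA alone, so their directions came with the listing. With reads halved, the intervals of RPL23AP20 and RPL23AP53 include 1. The 8 with a known sequence ran in identity from 82.4% in RPL23AP20 to 99.6% in RPL23AP42. RPL24, RPS2, RPS3A and RPL13A have 2 listed copies each. Both copies of RPL24 had 0 reads in IP RNA, and RPL24 itself, for a large subunit protein, was 1.85-fold lower (1.70 to 2.03). Both copies of RPS3A had a higher ratio than RPS3A, with 3.70 times its ratio for RPS3AP26 (0.884 to 11.8) and 1.98 times for RPS3AP6 (0.217 to 8.75), and neither interval excludes 1. RPL13AP25 had 0.998 times the ratio of RPL13A (0.234 to 3.30) and RPL13AP5 0.674 times (0.379 to 1.14).

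**Figure D4:**
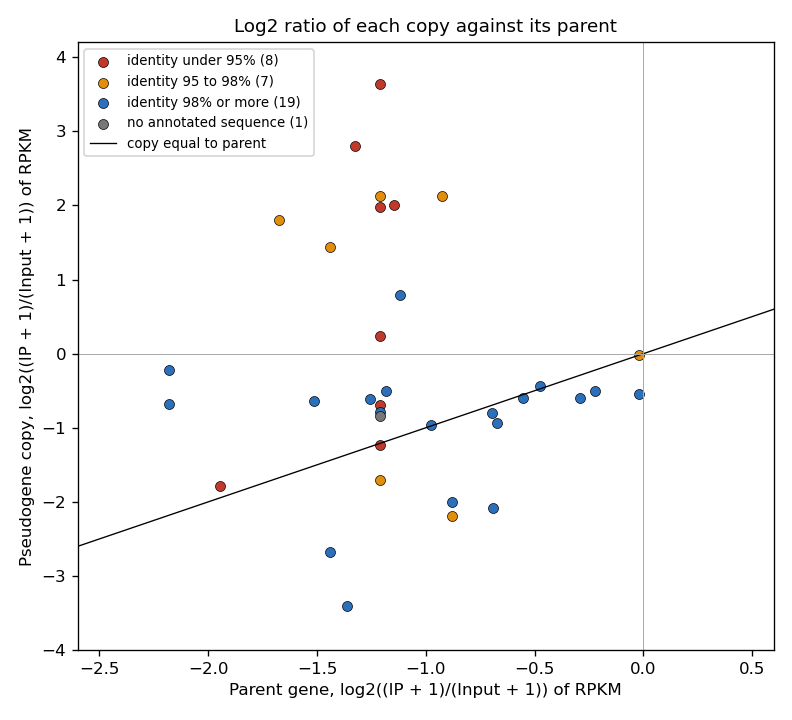
Log2 ratio on the RPKM + 1 scale of the 35 copies past the filter (vertical) against that of the parent gene (horizontal), coloured by identity of the coding sequence, with a line where both are equal. All parents lie below 0, and the 8 copies at least 2-fold higher are all under 98% identity.

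Across the 35 copies past the filter, the log2 ratio of the copy and of its parent had a Spearman rho of -0.00057 and a Pearson r of -0.07. The points share 2 libraries and several share a parent. Of the 35 copies, 8 passed 1 CPM in IP RNA alone and 15 in Input RNA alone, so their directions came with the listing. Neither a relation nor a lack of one is read from these coefficients. By reads, a copy held a median of 0.498% of the reads of its parent in IP RNA and 0.488% in Input RNA. The largest shares were those of RPL9P9, at 6.25% in IP RNA and 8.33% in Input RNA, RPL32P3, at 6.13% in IP RNA and 0.677% in Input RNA, RPS18P9, at 5.74% in IP RNA and 0.348% in Input RNA, and RPS2P5, at 5.07% in IP RNA and 6.26% in Input RNA. Shares per length are not given, because the table divides a parent by all its annotated exons, between 1535 and 8626 bases, whose coding sequences are between 156 and 1284 bases long, and so understates the level of its mRNA.

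Of the 38 copies with a position, 11 lay inside another gene on the same strand, 10 inside a gene on the opposite strand and 17 outside other genes. The 10, 7 and 17 copies past the filter had median log2 ratios of -0.41 on the same strand, -0.93 on the opposite strand and -0.54 outside. Past 2-fold, 4 of the 10 same-strand copies were higher and 2 lower, against 1 higher and 2 lower of the 7 opposite and 3 higher and 4 lower of the 17 outside. Over all features past the filter, 9.88% were higher and 6.83% lower. All of these higher copies passed 1 CPM in IP RNA alone and all of the lower ones in Input RNA alone. The counts thus carry the direction that came with the listing, and no effect of location is read from them. The containing gene was listed for 16 copies, and its log2 ratio was above 0 for 13 of them. The median over all features past the filter was itself above 0, at 0.17, so this count is not read as a trait of the containing genes. RPL18AP3, in an intron of the thioredoxin reductase gene TXNRD1, had 1.18 RPKM in IP RNA and 2.79 RPKM in Input RNA, and TXNRD1 had 8.43 RPKM in IP RNA and 6.52 RPKM in Input RNA. RPL12P16 lies wholly within an exon of NBEAL1 on the same strand (498 bases). NBEAL1 was credited with 59 reads in IP RNA and 124 in Input RNA, against 13 in IP RNA and 61 in Input RNA for the copy, so the 2 values are not independent.

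By library of detection, 9 of 39 ribosomal protein copies (23.1%) were over 1 CPM in IP RNA alone. The same held for 104 of 187 features outside the 39 that are annotated as processed pseudogenes (55.6%), and the difference was not tested. Among the 39, RPL32P3 and RPL23AP82 are annotated as unprocessed. Of the 112 other processed pseudogenes with a mean of at least 1 RPKM, 59 lay 2-fold or further above and 5 2-fold or further below, with a median log2 ratio of 1.09, against -0.60 for the 35 ribosomal protein copies. As 104 of the 187 were listed through IP RNA alone, these counts and the median of 1.09 carry in part the direction that came with the listing. The 83 cytosolic ribosomal protein genes and paralogs past the filter had a median of -0.92, and 35 of them were 2-fold or further below while none was 2-fold above.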

How the data were processed

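Per the file headers, the authors deposited RPKM of both libraries side by side, with their own log2 fold change (IP over Input). FastQC 0.12.0 and the hg38 build come from the submitters' processing notes. Which aligner, counter and gene annotation were used is not given in the sources used here. Whether counting used strand is not stated in the labels' protocols. Whole reads and feature lengths were recovered from the deposited RPKM and log2 fold change, which adds a small constant averaging 0.125 reads per library, for 14913 of 14914 features (tolerance 0.01 reads). The recovery and the intervals were checked on simulated data. RPKM was not tested, since each group has 1 library. The measure was log2((IP + 1)/(Input + 1)), where the pseudocount of 1 RPKM shrinks the ratios of low features, and features needed a mean of 1 RPKM. Intervals are 95% exact conditional and cover counting error only, as PCR reads are not independent molecules. Coding sequences of parents were aligned to copies with Biopython 1.88 (local, match 2, mismatch -3, gap -5 and -2), from GENCODE v29. Reads of near-identical copies, and of a copy and an overlapping or antisense gene, cannot be told apart, so values of copies are uncertain.

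The rule for named genes took, among copies with at least 20 reads, the 8 highest and 8 lowest by log2 ratio and the 8 highest by mean RPKM, the copies of the parents with most listed copies, and the best covered copies at 0. Other copies are named to account for all 39. The copies and lists were chosen with earlier results of these data known. Alternatives were other pseudocounts, filters, thresholds, a centred scale and a minimum of 20 reads. Those with reads halved, over 1 CPM in both libraries, or summed without copies over 1 CPM in 1 library alone were added after seeing the data. Some items are not reported here.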

Additional observations from a re-analysis of the deposited data

How the results depend on the processing

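No paired analysis was possible because each group has 1 library. With a pseudocount of 5 RPKM, 2 copies were at least 2-fold higher in IP RNA and 2 lower, none (0) was 2-fold below its parent, and the median log2 ratio of copies of at least 98% identity was -0.38. With a pseudocount of 0.1 RPKM the medians were -0.70 for copies outside other genes and 2.27 for copies of 95 to 98% identity. A filter of 5 RPKM left 1 copy higher, RPL23AP32, and 0 lower, with 1 above and 0 below the parent. Centred ratios gave -0.71 outside other genes. At 1.5-fold 19 copies were lower. At 4-fold, 5 were higher, 4 lower and 1 below the parent. With at least 20 reads, 0 were higher and 4 lower, with 2 above and 3 below the parent. Over 1 CPM in both libraries, 0 were higher and 0 lower, with 3 above and 0 below the parent. Of all features over 1 CPM in both and past the filter, 6.53% were higher and 5.31% lower. For the other alternative settings no share over all features is given, so those counts are not read against a background. Without the highest parent, RPL26, the summed ratio of the parents was 0.531. With reads halved, 5 copies had an interval above 1. The counts of higher and lower copies therefore rest on copies with few reads in 1 library. The median difference between copy and parent was 0.36, and turned to -0.021 with at least 20 reads; it was 0.027 and 0.74 with pseudocounts of 0.1 and 5 RPKM and 0.65 with a filter of 5 RPKM. The summed ratio of the copies, 0.747, was 0.488 without copies over 1 CPM in IP RNA alone, 1.01 without those over 1 CPM in Input RNA alone, which turns its direction, and 0.631 for those over 1 CPM in both. The cause was not tested. Another 65 values stayed within 1.5 times the count or within the interval of the value. The depth limits what can be said of any copy with fewer than about 20 reads.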
